A study of Rattus norvegicus with 21 samples.

Results

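The genes described here are 5 members of the Reg family, Reg1a, Reg3a, Reg3b, Reg3g and Reg4, and the lipocalin gene Lcn2, in islets of Langerhans of Lewis rats 4 weeks after surgery. They are the 6 rows of the deposited count table whose gene name is one of these symbols, out of 28914 gene names, and 4 of the 6 (Reg1a, Reg3a, Reg3b and Lcn2) had enough counts to enter the fit across 13136 genes. Reg3g passed in too few libraries to enter it and Reg4 had no count. The 11 PX libraries are from rats that had undergone partial pancreatectomy (removal of 90% of the pancreas per the design text), and the 10 Sham libraries from rats with a sham operation. All libraries were made from polyadenylated RNA of islets with a directional kit, and the labels describe the animals as "4-5 Week" without saying to which moment this refers. Each title carries an animal number, which names the library in the text, and a BG value averaged before sacrifice, without a unit, of 101 to 174 in PX and 82 to 104 in Sham rats. The numbers differ between all libraries, and the labels say nothing more of how the animals were kept apart; the p-values rest on the spread from library to library. Every title also carries the tag Inc_YES, whose meaning is not given. The aim named in the design text is the effect of raised glucose on islets. Between PX and Sham, the operation and raised glucose cannot be told apart.

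Reg genes encode small secreted proteins with a C-type lectin fold. Reg1a, also called lithostathine, was first cloned from regenerating rat islets and is made by acinar cells, the enzyme-secreting cells that surround the islets. Reg3b, Reg3a and Reg3g are the rat pancreatitis-associated proteins, stress-induced in acinar cells in pancreatitis, and their relatives in the gut kill or restrain bacteria. Cytokines that act through the transcription factor STAT3 are known inducers of the Reg3 genes. Reg4 is best known from intestinal epithelium. Lcn2, lipocalin 2, binds bacterial siderophores and so withholds iron. It is induced by interleukin-1 and interleukin-17 through NF-kB and its partner Nfkbiz, in injured epithelium and in macrophages, and is also a granule protein of neutrophils.

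In the deposited coordinates, for which the genome build is not given in the sources used here, 4 Reg genes lie within 65 kb of chromosome 4. Reg3b spans chr4:109467272-109470510, Reg3a chr4:109477920-109480659 and Reg1a chr4:109497962-109501082, all on the plus strand, and Reg3g spans chr4:109529679-109532234 on the minus strand. Reg4 stands apart at chr2:200397967-200409528 on the plus strand, and Lcn2 at chr3:11414186-11417546 on the minus strand. Each has 6 annotated exons, except Reg4 with 5. The 250 bases before the start of each of the 5 detected genes are shown to set the clustered Reg genes beside Lcn2, which lies on another chromosome. They come from RefSeq, build GRCr8, where all 6 genes were matched by symbol. In that build the windows are chr4:112450216-112450465 (plus) for Reg1a, chr4:112430147-112430396 (plus) for Reg3a, the first of its 2 entries, chr4:112419526-112419775 (plus) for Reg3b, chr4:112484739-112484988 (minus) for Reg3g and chr3:36081781-36082030 (minus) for Lcn2. Each reads 5′ to 3′ on the strand of its gene, and capitals mark TATAAA, known from core promoters, and CTGGGAA or its reverse complement, known as an interleukin-6 response element of acute phase genes.
Reg1a: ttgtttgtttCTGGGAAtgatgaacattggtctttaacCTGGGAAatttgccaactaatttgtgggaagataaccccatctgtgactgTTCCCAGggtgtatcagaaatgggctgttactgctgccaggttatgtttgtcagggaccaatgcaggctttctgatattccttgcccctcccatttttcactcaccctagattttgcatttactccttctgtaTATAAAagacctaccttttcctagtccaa
Reg3a: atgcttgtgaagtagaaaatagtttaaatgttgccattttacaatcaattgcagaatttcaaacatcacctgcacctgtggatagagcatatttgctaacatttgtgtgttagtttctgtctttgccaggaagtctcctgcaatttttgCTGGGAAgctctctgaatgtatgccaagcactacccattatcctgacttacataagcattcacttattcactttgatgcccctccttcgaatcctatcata
Reg3b: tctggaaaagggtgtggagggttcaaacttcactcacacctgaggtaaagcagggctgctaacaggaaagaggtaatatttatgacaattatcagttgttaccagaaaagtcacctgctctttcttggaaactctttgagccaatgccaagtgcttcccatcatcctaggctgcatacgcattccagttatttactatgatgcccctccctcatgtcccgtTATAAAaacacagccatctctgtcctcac
Reg3g: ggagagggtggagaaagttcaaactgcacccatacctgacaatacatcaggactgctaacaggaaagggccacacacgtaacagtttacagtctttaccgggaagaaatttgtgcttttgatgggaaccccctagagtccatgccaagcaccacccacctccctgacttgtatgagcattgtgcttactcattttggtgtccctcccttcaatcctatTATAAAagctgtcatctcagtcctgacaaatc
Lcn2: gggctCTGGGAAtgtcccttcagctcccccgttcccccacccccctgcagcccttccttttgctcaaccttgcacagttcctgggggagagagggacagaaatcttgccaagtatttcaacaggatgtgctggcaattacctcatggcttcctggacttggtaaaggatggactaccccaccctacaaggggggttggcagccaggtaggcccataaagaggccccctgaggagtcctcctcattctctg
TATAAA, found on either strand in 12.9% of 33469 promoter windows of this length, began at base -29 in Reg1a, at -29 in Reg3b and at -32 in Reg3g, counted back from the start. The Reg3a and Lcn2 windows did not hold these letters. For Reg3a only the first of its 2 entries was searched, so the absence holds for that window only. CTGGGAA, in 9.56% of all windows, occurred at -240, -212 and, on the other strand, -162 in Reg1a, at -101 in Reg3a and at -245 in Lcn2. TTCNNNGAA, the palindrome bound by STAT factors and present in 7.67% of windows, occurred at -242 in Reg1a, where it overlaps CTGGGAA, and at -129 in Reg3b. TTGCNNNAA, in 8.17% of windows, was in none of the 5 windows shown. Only this spacing of TTGC and AA was searched, so the absence of C/EBP sites was not tested. CCCTCC, in 33.6% of windows, was in all 4 chromosome 4 Reg windows but not in that of Lcn2. On the strand of the gene CCCTCC began at -22 in Reg3a, -47 in Reg3b and -50 in Reg3g. Positions counted from the start may therefore not line up between the Reg3a window and the others. The motifs were picked with the sequences in view, and a match is a description of letters only. Among the chromosome 4 Reg windows the identity of aligned bases ran from 58.8% for Reg1a with Reg3g to 71.9% for Reg3a with Reg3b, and between these windows and that of Lcn2 from 54.1% to 62.4%, so the ranges overlap.

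Total counts per library ran from 4001908 to 13187959 in PX and from 4695195 to 11266015 in Sham. The islet label fits the high level of 14 measured endocrine markers, whose mean log2 CPM (the usual scaling of counts to library size, here with totals adjusted by TMM factors) was 9.78 ± 0.20 in PX and 10.01 ± 0.102 in Sham (SD over 11 and 10 libraries). RNA of other cells was present as well. Counts on 28 acinar markers, none of them a gene described here, took 20.3% ± 12.4 of each library in PX and 10.95% ± 9.47 in Sham (SD over 11 and 10 libraries; permutation test, adjusted p = 0.0732 over 8 measures). PX 65 stood apart with an acinar share of 50.3% and a TMM factor of 0.359. By sets of animal numbers, chosen with these shares known and not batches given by the labels, the share was 17.7% to 50.3% in PX 57 to 70, 6.33% to 16.9% in PX 36 to 44, 13.2% to 24.05% in Sham 46 to 50 and 0.652% to 6.17% in Sham 21, 22, 24, 73 and 74. In bulk RNA, fewer cells of a type and less RNA per cell cannot be told apart.

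Lcn2 rose after pancreatectomy, and it did so in every PX library. Its level was 8.49 CPM in the lowest, 42.2 CPM in the median and 90.7 CPM in the highest of 11 PX libraries, against 1.44, 2.56 and 3.89 CPM in the lowest, median and highest of 10 Sham libraries. The groups did not overlap: the lowest PX library, PX 44, lay above the highest Sham library, Sham 48. The mean was 48.03 ± 26.8 CPM in PX and 2.53 ± 0.656 CPM in Sham (SD over 11 and 10 libraries). The fitted log2 fold change was 4.25 ± 0.34, or 19.02-fold (SE; adjusted p = 3.92e-08 by edgeR's quasi-likelihood test with Benjamini-Hochberg adjustment). In every one of 38 settings tried, Lcn2 was called, with log2 fold changes of 3.73 to 4.65. Over all genes tested, 14.9% were called higher in PX and 1.55% had every PX library above every Sham library. Lcn2 had the 29th highest log2 fold change of the genes tested.

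Reg1a, the most abundant Reg gene, did not pass the test. It reached 678, 1331 and 9274 CPM in the lowest, median and highest PX libraries, against 9.70, 705 and 4195 CPM in Sham. The spread was wide on the Sham side, where Sham 22, 24, 73 and 74 stayed between 9.70 and 37.2 CPM and Sham 46 stood highest. Its log2 fold change was 1.13 ± 0.84 (SE; edgeR, adjusted p = 0.320), and 1 of 11 PX libraries, PX 65, lay above every Sham library. That order depends on the scaling, as PX 65 has a TMM factor of 0.359. As a share of unscaled counts, the 4 chromosome 4 Reg genes together took 0.533% in PX 65 and 0.690% in Sham 46.

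Reg3a, pancreatitis-associated protein II in the rat, ran at 117, 584 and 4123 CPM in the lowest, median and highest PX libraries, against 2.19, 46.8 and 1445 CPM in Sham. In these scaled levels the groups overlapped through 2 Sham libraries. Sham 46 was above all PX libraries but PX 65, and Sham 49, at 137 CPM, lay above only PX 38. The log2 fold change was 2.22 ± 1.004 (SE; edgeR, adjusted p = 0.0983) with all libraries, 4.28 without Sham 46 (adjusted p = 0.000789) and 1.53 without PX 65 (adjusted p = 0.248).

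Reg3b, pancreatitis-associated protein I, showed the same arrangement. Its level was 37.5, 248 and 1458 CPM in the lowest, median and highest PX libraries, against 0.168, 11.0 and 628 CPM in Sham. Sham 46 was again the highest Sham library and, in scaled levels, above all PX libraries but PX 65. It was followed by Sham 47 at 39.3 CPM, which exceeded only PX 38. The log2 fold change was 2.23 ± 1.06 (SE; edgeR, adjusted p = 0.115) with all libraries, 4.82 without Sham 46 (adjusted p = 0.00032) and 1.68 without PX 65 (adjusted p = 0.242).

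Reg3g, pancreatitis-associated protein III, was scarce and nearly restricted to PX libraries. It had 1220 counts over 11 PX libraries, with 1 library (PX 44) at 0, and 18 counts over 10 Sham libraries, with 6 libraries at 0 and 14 of the 18 counts in Sham 21. Levels were 0, 15.4 and 42.8 CPM in the lowest, median and highest PX libraries, and 0, 0 and 1.34 CPM in Sham. In the fit without a count filter its log2 fold change was 5.99 (edgeR, adjusted p = 0.000215); with so few Sham counts this size depends on the prior count. It enters a fit only through its PX counts, so these values are a description. Sham 46, the Sham library richest in Reg1a, Reg3a and Reg3b, had no Reg3g count and an Lcn2 level of 2.73 CPM, within the range of the other Sham libraries.

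Reg4 had 0 counts in all 21 libraries. A count of 0 allows up to 3 counts, or up to 0.0342 CPM over the summed PX libraries and 0.0425 CPM over the summed Sham libraries, for counting error only.

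**Figure D1:**
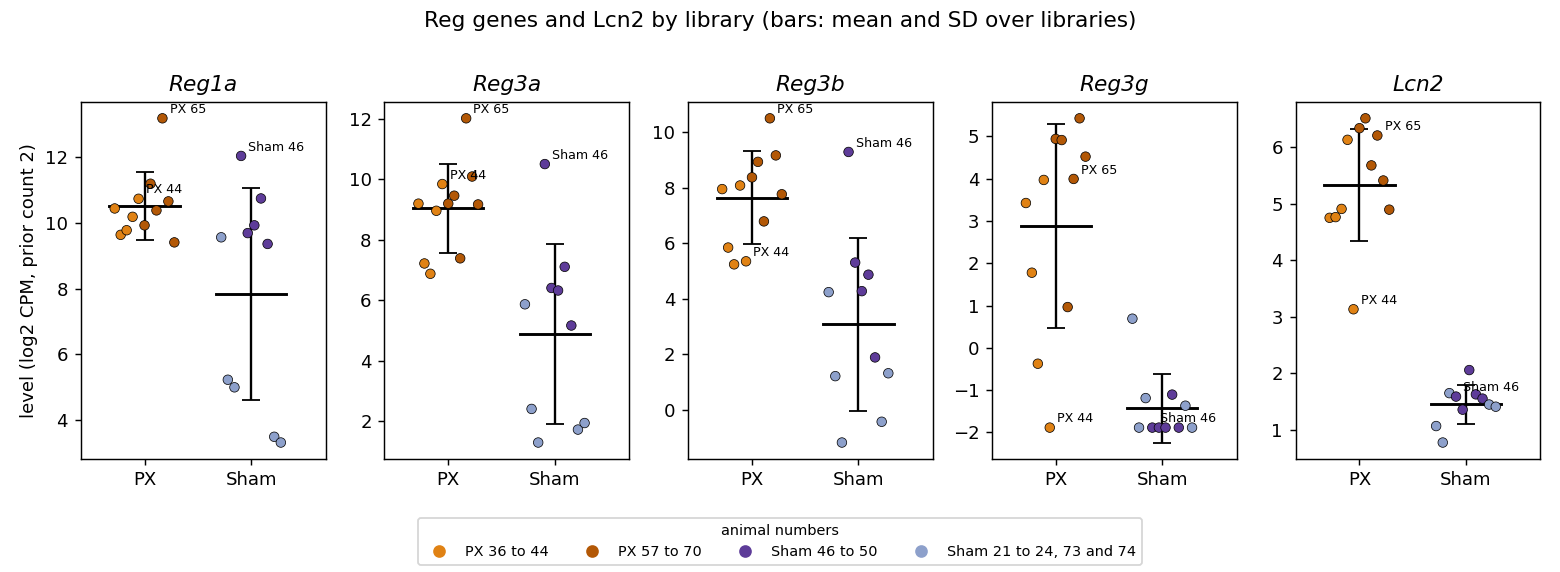
Level of 5 genes (vertical axes, log2 CPM with a prior count of 2) in 11 PX libraries, left, and 10 Sham libraries, right, coloured by set of animal numbers; bars give the mean and SD. Lcn2 separates the groups in all libraries, while Sham 46 lies among the highest PX libraries for Reg1a, Reg3a and Reg3b and at the bottom for Reg3g.

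One of the 4 genes tested, Lcn2, was thus called higher in PX, beside 14.9% of all genes, and 0 of 4 were called lower, beside 16.2%. The median log2 fold change over all genes was -0.04. The calls of the 3 Reg genes depended on the test and on the libraries. In the authors' deposited table the log2 fold changes were 4.61 for Reg3b (adjusted p = 0.00131), 4.13 for Reg3a (adjusted p = 0.00135), 4.00 for Lcn2 (adjusted p = 7.76e-06) and 2.67 for Reg1a (adjusted p = 0.0315), and Reg3g and Reg4 are not listed there. Limma voom without quality weights, run here on the deposited counts, gave 4.61, 4.13, 4.00 and 2.67 for the same genes in that order. It fits means of log2 values, and edgeR fits means of counts.

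The choice of Sham or PX libraries by these sets gave the lowest and highest log2 fold changes of all 3 Reg genes over the settings tried; the 2 Sham sets also differ in acinar share. Against Sham 21, 22, 24, 73 and 74 alone, the log2 fold change of Reg1a was 3.55 (edgeR, adjusted p = 0.019), that of Reg3a 5.85 and that of Reg3b 6.09. Against Sham 46 to 50 alone they were 0.28, 1.28 and 1.27, with none of the 3 called, whereas Lcn2 was 4.45 and 4.10 against these parts of the Sham group. With PX 36 to 44 in place of all PX libraries, Reg3b was at 0.82 and Lcn2 at 3.73. Each set holds libraries of 1 group only, so set and group cannot be told apart. Without PX 65, the log2 fold change of Reg1a was 0.48, and with the acinar share as a covariate it was 0.53, while Lcn2 stayed at 3.95 with that covariate.

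**Figure D2:**
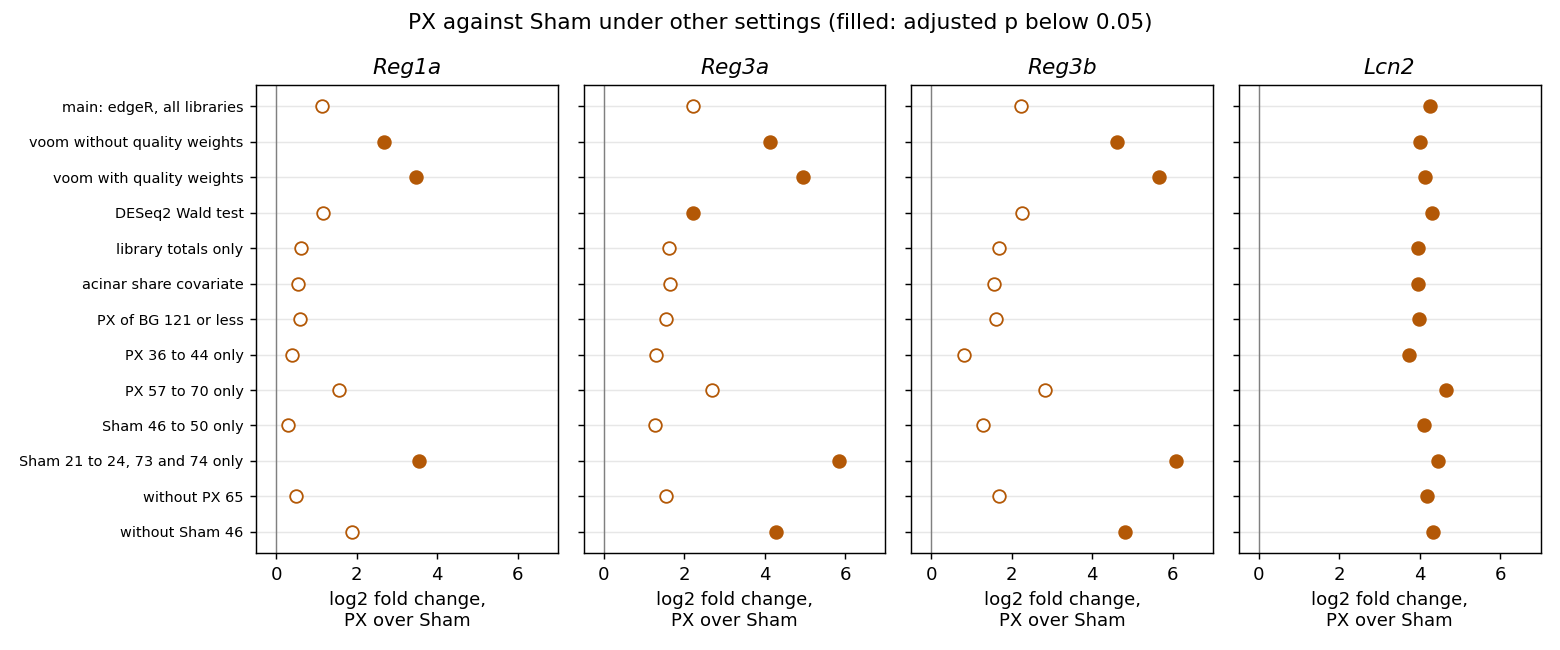
Log2 fold change of PX over Sham (horizontal axes) for 4 genes under 13 settings (rows), filled where the adjusted p is below 0.05. Lcn2 lies between 3.73 and 4.65 throughout, and Reg1a, Reg3a and Reg3b are filled in 3 to 5 of the settings shown.

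Within a library the members kept a steady order of levels per kilobase of deposited gene length. Mean levels in PX were 1645 CPM per kb for Reg1a, 970 for Reg3a, 447 for Reg3b, 54.0 for Lcn2 and 20.3 for Reg3g. In Sham the means were 753 CPM per kb for Reg1a, 208 for Reg3a, 95.1 for Reg3b, 2.85 for Lcn2 and 0.236 for Reg3g. Reg1a stood above Reg3a in 10 of 11 PX and 10 of 10 Sham libraries, and Reg3a above Reg3b in 11 of 11 and 10 of 10. Reg3b exceeded Lcn2 in 11 of 11 PX libraries and 8 of 10 Sham libraries, and Lcn2 exceeded Reg3g in 10 of 11 and 10 of 10. The SD of each detected Reg gene over libraries exceeded its mean in both groups, except for Reg3g in PX, so the order is one within libraries.

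The make-up of the Reg counts differed between the groups, with more Reg3a and Reg3b for each Reg1a count in PX. Ratios within a library do not depend on its scaling, and 5 were computed, all chosen after seeing the data. Per 100 Reg1a counts, a PX library held 12.5, 42.7 and 84.6 Reg3a counts (lowest, median, highest), against 5.43, 9.22 and 36.8 in Sham. All 11 PX libraries lay above the Sham median, and the mean log2 ratio was 1.53 higher in PX (permutation test, adjusted p = 0.0047 over the 5 ratios, and 0.00282 without Sham 46). Per 100 Reg1a counts there were 2.39, 17.9 and 35.8 Reg3b counts in PX, against 0.521, 3.36 and 22.8 in Sham, a log2 difference of 2.14 (adjusted p = 0.00697; PX above the Sham median in 10 of 11 libraries). The Sham libraries with the highest ratios were Sham 74, with 57 Reg1a counts, and Sham 46. Whether reads matching more than 1 of these related genes were counted is not given in the sources used here, which leaves the split between Reg3a and Reg3b less certain than their sum.

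**Figure D3:**
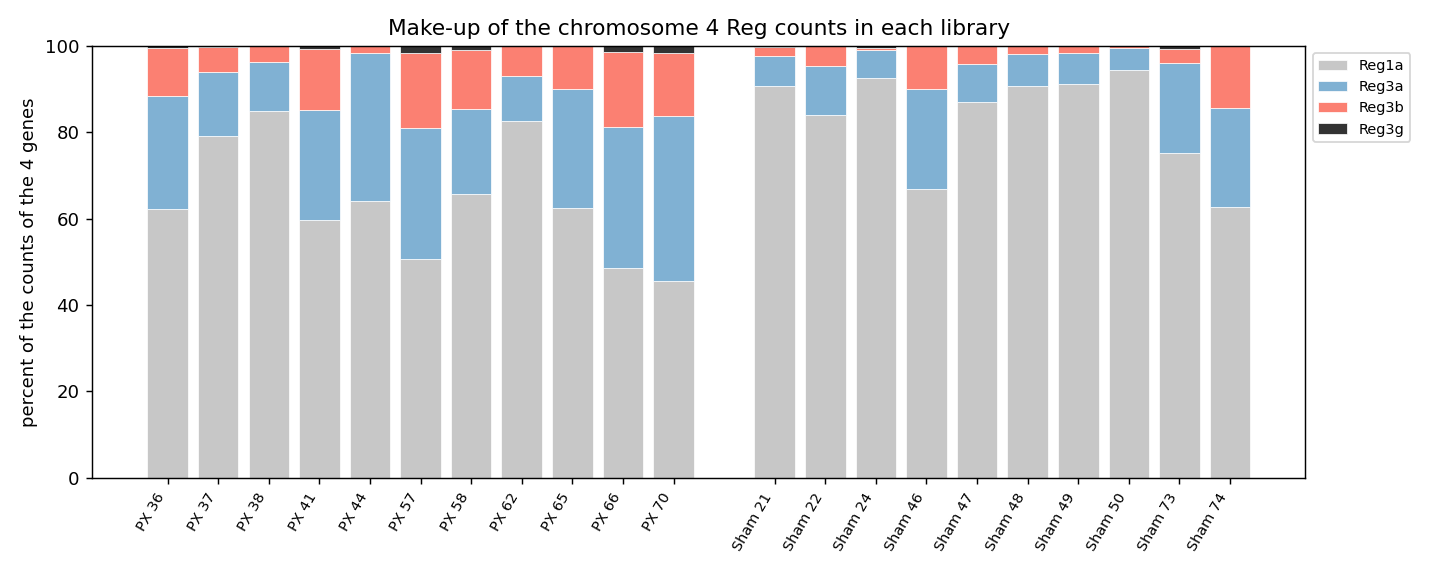
Share of Reg1a, Reg3a, Reg3b and Reg3g (stacked bars, percent of their summed counts) in each PX library, left, and each Sham library, right. Reg1a takes 45.4% in PX 70 and 94.4% in Sham 50, the extremes of the 21 libraries.

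Set against the acinar markers, Reg3a and Reg3b were higher in PX and Reg1a did not pass the test. Per 1000 counts on acinar markers, libraries held a median of 6.61 Reg1a counts in PX and 4.63 in Sham, a log2 difference of means of 0.85 that did not pass (permutation test, adjusted p = 0.178). Reg3a had a median of 2.94 counts per 1000 acinar counts in PX and 0.364 in Sham, and the mean log2 ratio was 2.38 higher in PX (adjusted p = 0.0047). Reg3b had a median of 1.17 in PX and 0.129 in Sham, with a log2 difference of 2.99 (adjusted p = 0.0047). All 11 PX libraries lay above the Sham median for both Reg3 genes, and Sham 46 was above every PX library but 1 for each.

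Within the 11 PX libraries, Reg1a rose with the acinar share, by 0.64 ± 0.113 on the log2 scale per 10 percentage points (SE; edgeR, adjusted p = 0.0041). Over all 11196 genes tested within PX, 2.82% rose with the share and 0.0715% fell, and 1 of the 4 genes was called. The slopes were 0.75 ± 0.217 for Reg3b (adjusted p = 0.0946), 0.67 ± 0.182 for Reg3a (adjusted p = 0.0745) and 0.30 ± 0.194 for Lcn2 (adjusted p = 0.419). The Reg1a call rests on PX 65: without it the slope was 0.22 (adjusted p = 0.662), and with BG as a covariate it was 0.54 and not called. In Sham the acinar share fell into 2 separate ranges, so values only are given there. Median Reg1a levels were 971 CPM in Sham 46 to 50 and 31.7 CPM in the Sham libraries of low acinar share, and those of Lcn2 were 2.73 and 2.38 CPM.

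**Figure D4:**
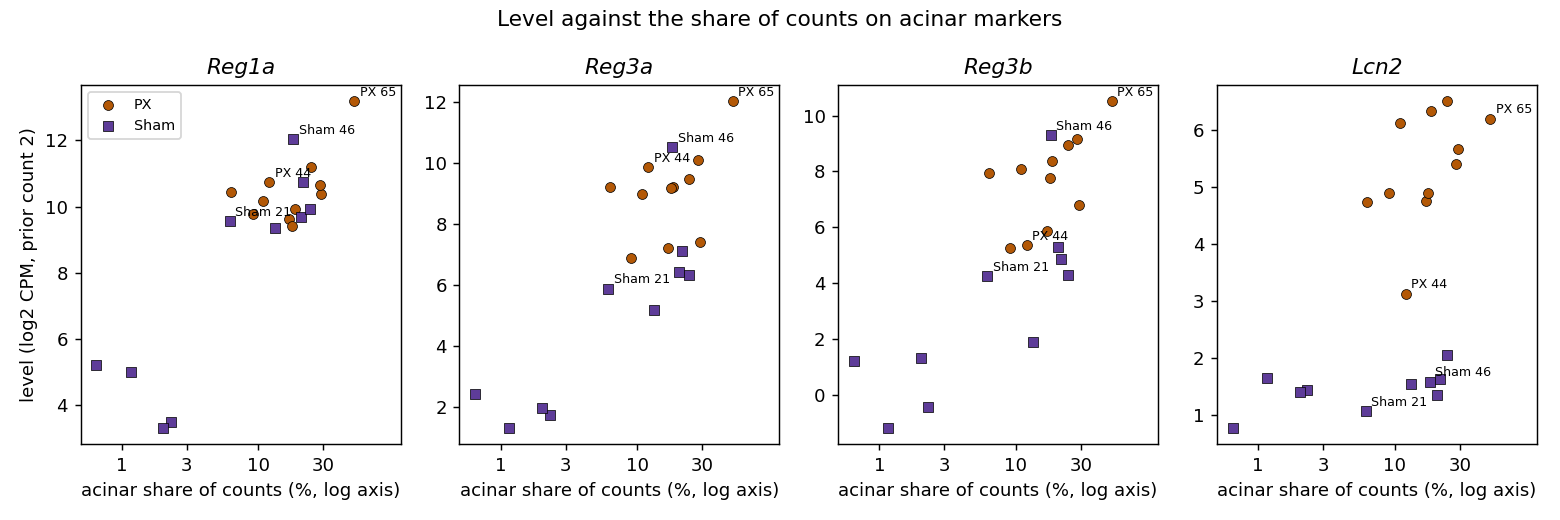
Level (vertical axes, log2 CPM) against the acinar share of counts (horizontal axes, percent, log axis) in PX libraries (circles) and Sham libraries (squares). At shares of 6% to 30% the groups mix for Reg1a, lie apart except for Sham 46 for most Reg3a and Reg3b values, and do not meet for Lcn2.

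Across PX rats, none of the 4 genes passed the test for a slope on BG (edgeR, adjusted p = 0.347 to 0.422), and 0% of all 11196 genes passed it in either direction. At an unadjusted p under 0.05 there were 3 of 4 (Reg1a, Reg3a and Reg3b), all rising with BG, beside 5.93% of all genes that rose and 6.92% that fell with BG at that level, while DESeq2 and voom with quality weights called 0 after adjustment. Per 10 units of BG the log2 slopes were 0.30 ± 0.084 for Reg1a, 0.29 ± 0.114 for Reg3a, 0.33 ± 0.137 for Reg3b and 0.20 ± 0.100 for Lcn2 (SE). PX 65, with the highest BG of 174, also had the highest Reg1a, Reg3a and Reg3b levels and the highest acinar share. Without it the slopes of Reg1a and Reg3a were -0.08 and -0.07. With the 8 PX rats of BG 121 or less set against all Sham rats, the log2 fold change of Lcn2 was 3.99 and still called, and Reg3a stood at 1.55.

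**Figure D5:**
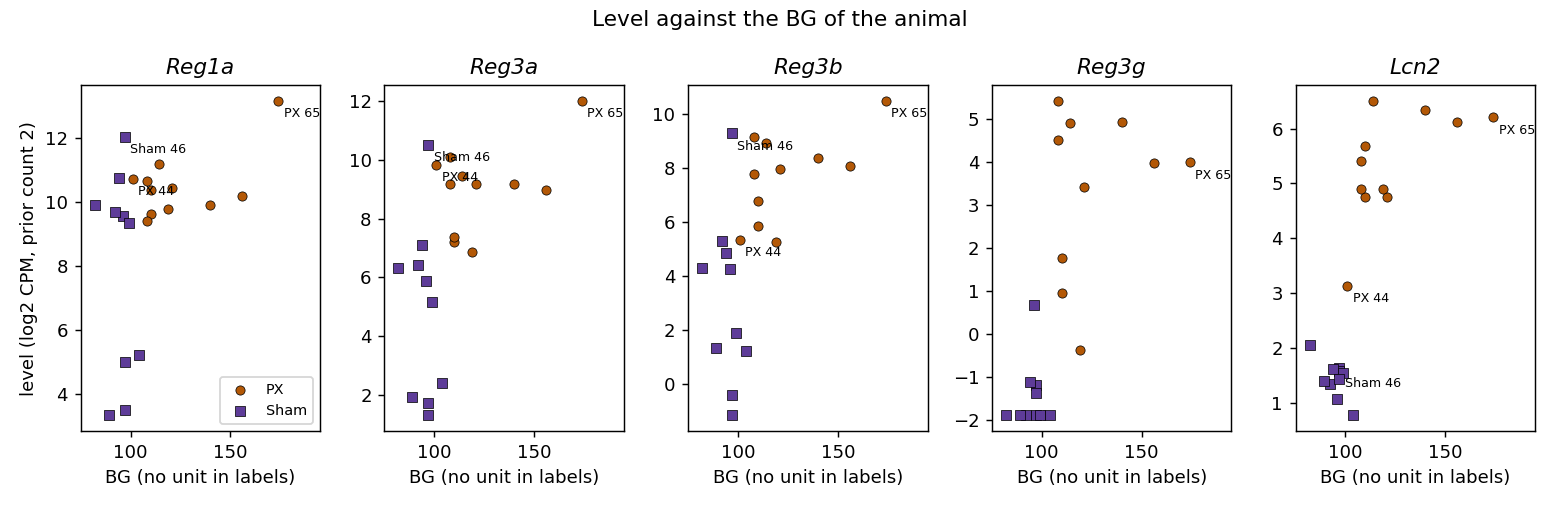
Level (vertical axes, log2 CPM) against the BG in the titles (horizontal axes, no unit given) in PX libraries (circles) and Sham libraries (squares). PX 65 lies at the far right, and Lcn2 is above all Sham values also in PX rats whose BG is close to that of Sham rats.

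Some pairs of members varied together within PX, Reg3b with Reg3g most closely of the 10 pairs. In all, 6 pairs passed by Pearson correlation of log2 CPM over 11 libraries, and 2 by rank correlation. Reg3b with Reg3g gave r = 0.85 (permutation p = 0.00066, adjusted p = 0.0066) and rho = 0.84 (permutation p = 0.00211), and r = 0.71 without the 2 libraries farthest from the median. Reg1a with Reg3a gave r = 0.77 (permutation p = 0.00578, adjusted p = 0.0193) and rho = 0.78 (permutation p = 0.00627), and r = 0.70 on 9 libraries. Lcn2 went with Reg3g (r = 0.72) and Reg3b (r = 0.71) at an adjusted permutation p of 0.0256 each, and by rank at 0.114 and 0.0705, which did not pass; its r with Reg1a was 0.30 and with Reg3a 0.19, neither past the threshold. With 9 libraries, 0 of 10 pairs passed after adjustment. The same PX library shows the contrast: PX 44 had the third highest Reg3a level of the group, at 915 CPM, with 40.5 CPM of Reg3b, no Reg3g and the lowest Lcn2.

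Markers of other cells also moved with the operation. The mean log2 CPM of acinar markers was 10.8 ± 1.21 in PX and 9.04 ± 2.01 in Sham (SD over 11 and 10 libraries; permutation test, adjusted p = 0.0298). Of 28 acinar markers 6 were called higher and 0 lower, beside 14.9% and 16.2% of all genes. Their median log2 fold change was 1.303, beside 1.13 for Reg1a. Endocrine markers scored 0.23 lower in PX (adjusted p = 0.00549), with 1 of 14 called higher and 5 lower. Mean log2 CPM of macrophage markers was 4.28 ± 0.904 in PX and 1.80 ± 0.387 in Sham, and 13 of 13 tested markers rose, with a median log2 fold change of 2.74. Low markers such as Tyrobp and Cd68, at Sham means of 0.723 and 1.24 CPM, enter the fit through their PX counts. The summed level of macrophage markers was 200.1 to 1869 CPM in PX and 47.1 to 147 CPM in Sham, and that of the duct markers 597 to 1189 CPM in PX and 534 to 694 CPM in Sham. Duct markers scored 4.56 ± 0.366 in PX and 3.52 ± 0.134 in Sham, with 8 of 13 called higher, and mesenchymal markers 6.01 ± 0.620 in PX and 4.25 ± 0.466 in Sham, with 10 of 10 higher (SD over 11 and 10 libraries; permutation test, adjusted p = 4e-05 for each score, from an unadjusted p of 2e-05, the smallest these resamples can give). Of 14 neutrophil markers 0 passed the count filter, and their summed level was 4.84 to 79.97 CPM in PX and 0.505 to 4.44 CPM in Sham. The neutrophil score was -0.55 ± 0.420 in PX and -1.50 ± 0.184 in Sham (SD over 11 and 10 libraries; permutation test, adjusted p = 4e-05). Some members were more numerous in PX: Fcnb had 235 counts over the PX libraries and 11 over the Sham libraries, Padi4 145 and 52, S100a9 137 and 39, Csf3r 100 and 22, and Cxcr2 74 and 7. Several granule genes of the list were at or near 0: Mpo had 1 count over all PX libraries and 0 over all Sham libraries, Ltf 1 and 0, Prtn3 3 and 0, Elane 4 and 3, and Camp 8 and 0. Ngp had 5 and 7, and Mmp8 had 18 and 2. The part of neutrophils in the Lcn2 level was not tested. Most of the neutrophil list's counts in PX came from Mmp9, a matrix protease that binds Lcn2 and is also made by macrophages, with 1367 counts in PX and 5 in Sham.

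Among PX libraries Lcn2 followed the duct score most closely, with r = 0.84 (permutation p = 0.00083, adjusted p = 0.0166 over 20 relations) and rho = 0.75 (permutation p = 0.0103, adjusted p = 0.205). Without the 2 libraries farthest from the median duct score, r was 0.69 and did not pass after adjustment. Lcn2 with the macrophage score gave r = 0.70 (permutation p = 0.014, adjusted p = 0.116) and rho = 0.70. These 2 scores were added to the measures after seeing the data. For Reg3a, r was 0.10 with the duct score and 0.03 with the macrophage score, neither past the threshold. Sham 46 had a macrophage score of 2.85, above 1.91 in the next Sham library and below 3.04 in PX 44, the lowest PX library. The part of these cells in the Lcn2 and Reg differences was not tested.

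The genes whose levels were most like those of each member over the 11 PX libraries were taken from 9930 genes by Pearson r of log2 CPM. For Lcn2 they were Rhob, a small GTPase gene (r = 0.97), Wdr46 (r = 0.95) and Csnk1g2 (r = 0.95). Rhob was higher in PX by 0.91 ± 0.19 on the log2 scale (SE; edgeR, adjusted p = 0.000966), whereas Wdr46 and Csnk1g2 were at 0.13 and 0.03 and not called. Reg1a was most like Ctsl, the lysosomal protease cathepsin L (r = 0.92), Mgat4a (r = 0.90) and Rab30 (r = 0.89). Reg3a was most like Camk2d, a calmodulin-dependent kinase (r = 0.89), Mat2b (r = 0.87) and Dmd, dystrophin (r = 0.86). Reg3b was most like Sergef (r = 0.92), Gimap9 (r = 0.90) and Lefty2 (r = 0.89). These r values are the highest of many and are given as a description over 11 libraries.

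Some genes of the pathway known upstream of the Reg3 family rose. Of 14 tested genes of the STAT3 axis, 6 were higher and 1 lower in PX, beside 14.9% and 16.2% of all genes. Their median log2 fold change was 0.41. Among the higher genes Bcl3 and Socs3, at Sham means of 1.36 and 1.69 CPM, enter the fit through their PX counts. With each library left out 5 to 10 were higher, the most without PX 44. Osmr, the oncostatin M receptor, averaged 23.3 ± 10.9 CPM in PX and 5.48 ± 2.57 CPM in Sham (SD over 11 and 10 libraries), a log2 fold change of 2.09 ± 0.28 (SE; edgeR, adjusted p = 8.36e-06). Socs3, a feedback inhibitor induced by STAT3, rose by 1.86 ± 0.28 (adjusted p = 3.38e-05), and Stat3 itself by 0.43 ± 0.13 (adjusted p = 0.0147). Il6r, the interleukin-6 receptor, fell by 0.48 on the log2 scale (SE 0.10; adjusted p = 0.00107), while Il22ra1, the interleukin-22 receptor, had a log2 fold change of 0.75 that did not pass (adjusted p = 0.0575). The ligands were scarce: Il6 had 35 counts over the PX libraries and 1 over the Sham libraries, Osm 114 and 27, and Il22 2 and 7.

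On the inputs known for Lcn2, 16 genes of the interleukin-1, tumour necrosis factor, interleukin-17 and NF-kB list were tested. Of these 6 were higher in PX and 0 lower, beside 14.9% and 16.2% of all genes. Their median log2 fold change was 0.43, and 11 were higher without PX 44. Il1rn, the interleukin-1 receptor antagonist, lay in all 11 PX libraries above every Sham library, by 5.32 ± 0.64 on the log2 scale (SE; edgeR, adjusted p = 4.68e-06). Its mean was 23.2 CPM in PX and 0.564 CPM in Sham. At this Sham level Il1rn passes the count filter through its PX counts, so its values are a description. It is counted among the 6 although, as an antagonist, it is not itself an input. Nfkbiz, a cofactor needed for Lcn2 induction in mouse cells, rose by 0.75 ± 0.19 (adjusted p = 0.00468), and the transcription factor gene Cebpd by 1.10 ± 0.27 (adjusted p = 0.00306). Il1b had 228 counts over the PX libraries and 25 over the Sham libraries, while Il17a had 1 and 0 and Tnf 7 and 1.

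Of 3 tested candidate receptors of these secreted proteins, 1 was lower in PX and 0 were higher (edgeR, also 0 at an unadjusted p under 0.05), though Mmp9, the fourth gene of this list, did not pass the count filter. Lrp2, megalin, which takes up Lcn2 in the kidney, averaged 21.4 ± 5.49 CPM in PX and 33.98 ± 4.60 CPM in Sham (SD over 11 and 10 libraries), and fell by 0.66 on the log2 scale (SE 0.13; edgeR, adjusted p = 0.00046). Slc22a17, a proposed Lcn2 receptor, had a log2 fold change of -0.03 ± 0.11, and Extl3, a proposed receptor for Reg proteins, 0.01 ± 0.0996. Neither passed, and both changed sign under other settings.

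Most acute phase genes that could be tested rose. Of 7 tested acute phase genes 6 were higher and 1 lower in PX, beside 14.9% and 16.2% of all genes. Among the 6, Fgg, Itih4 and C3 averaged 0.326, 0.772 and 1.61 CPM in Sham. These 3 enter the fit through their PX counts, so the number 6 and their values are a description. The list was not split by the direction each protein takes in an acute phase. The median log2 fold change of the 7 genes was 2.26. Complement C3 averaged 83.6 ± 61.2 CPM in PX and 1.61 ± 2.39 CPM in Sham (SD over 11 and 10 libraries; log2 fold change 5.65 ± 0.63, SE; edgeR, adjusted p = 2.46e-06). Cp, ceruloplasmin, rose by 2.60 ± 0.29 (adjusted p = 1.65e-06), and Tf, transferrin, which carries iron in plasma, by 2.26 ± 0.23 (adjusted p = 5.34e-07). For C3, Cp and Tf the groups did not overlap. Crp, the C-reactive protein gene, fell by 0.51 on the log2 scale (SE 0.19; adjusted p = 0.0397). Of 4 tested mucosal defence genes 2 were higher: Lyz2, a lysozyme that is also a macrophage marker, by 4.74 ± 0.61 (adjusted p = 1.05e-05), and Muc1, an epithelial mucin, by 1.46 ± 0.54 (adjusted p = 0.0454). The Muc1 call was lost in 11 of 21 fits that left out a library, and its log2 fold change was 1.002 without PX 65. Pigr, the transporter of mucosal antibodies, was at 0.29 ± 0.25 and did not pass.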

How the data were processed

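RNA of islets was sequenced in 11 PX and 10 Sham libraries. The tools, per the submitters' processing notes, were FastQC, Subread with featureCounts, and limma. Versions, the strand setting and the genome build were not given in the sources used here. Per the file headers, the deposited table holds unnormalized read counts and a length for each gene name. The authors' deposited table of the comparison gives, per the file headers, log2 fold changes, the fold change as a linear ratio, mean log2 expression and p-values with adjusted p-values.

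TMM scaling, a filterByExpr filter (minimum count 10, minimum total 15; by group, or as a single group within PX) and robust quasi-likelihood models were run in edgeR 4.0.16 (R 4.3.3), with Benjamini-Hochberg adjustment over all genes tested and a threshold of 0.05. Standard errors were derived by dividing each fold change by the root of its F. Levels in CPM use TMM-scaled totals, and log2 levels add a prior count of 2. Scores average the log2 CPM of a marker list, and the acinar share is the percent of raw counts on its markers. Library measures, ratios and correlations were tested by two-sided permutation of means or pairings with 100000 resamples (scipy 1.17.1). Promoter windows were aligned in pairs and searched on both strands. The genes named beside the members are up to 3 of lowest p in each pathway list and the 3 of highest r with each member among genes of at least 5 mean CPM; others (Stat3, Il22ra1, Crp and genes given by their counts) were named after their values were seen. Members, lists and tests were chosen with earlier results of these data known.

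Alternatives were DESeq2 1.42.0 size factors and Wald test, library totals only, scaling without acinar counts, no filter, a filter of CPM above 1 in 10 libraries (5 within PX), limma 3.58.1 voom with quality weights, acinar share or BG as a covariate, the acinar score in place of the share, subsets by BG and by animal number, and each library left out. Leaving out Sham 46 and PX 65 together, voom without quality weights, the acinar score as a covariate and the ratios were added after seeing the data. The fits were checked on simulated counts. The closest pair of libraries within a group, Sham 73 and 74, differed by a chi-square of 4.37 per degree of freedom, so none was counted as sequenced again. Total counts of 4001908 to 13187959 per library limit the precision for low genes such as Reg3g.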

Additional observations from a re-analysis of the deposited data

Results flagged for a closer look

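Of 18 measures examined in the Sham group, 4 had a library farther from the others than a Dixon ratio of 0.466 allows for 10 libraries. For normally distributed values chance gives about 1 in 20 groups, and skewed ratios or levels tied at 0 counts can give more. All of the 4 but the Reg3g one were of the same library, Sham 46, in related measures. Reg3g reached a log2 CPM of 0.69 in Sham 21, against -1.11 in the next Sham library, on 14 counts. The macrophage score was 2.85 in Sham 46, against 1.91 in the next. Sham 46 also held 8.79 Reg3a counts per 1000 acinar counts, against 1.10 in the next Sham library, and 3.82 Reg3b counts per 1000 acinar counts, against 0.373. The PX group, with more than 10 libraries, was not examined in this way.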

How the results depend on the processing

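Lcn2 was called higher in PX in all 38 settings, while Reg3a was called in 6 of 38, Reg3b in 5 and Reg1a in 3, all with positive log2 fold changes. Of the 6 genes, 1 (Lcn2) was called higher with all libraries, and 2 with DESeq2 (Lcn2 and Reg3a). Lcn2 and Reg3g were the 2 called without a filter, with the CPM filter, with PX 57 to 70 only and with Sham 46 to 50 only. The number was 3 without Sham 46 and PX 65, and 4 with voom with or without quality weights, in each case without Reg3g. It was 5, Reg3g included, against Sham 21 to 24, 73 and 74. With each library left out it was 1 to 4, the highest without Sham 46, and some of these numbers include Reg3g. Reg3g enters a fit only through its PX counts, so its calls are a description. In fits with fewer Sham libraries Reg3g enters because the filter asks for fewer libraries; otherwise the cause was not tested. Genes called on the acinar slope numbered 0 with voom or BG as a covariate, against 1, and 0 to 2 with each library left out. Pathway genes higher in PX numbered 20, and 12 with library totals only, 33 without a filter, 10 with PX 36 to 44 and 16 to 29 with each library left out; lower ones numbered 3, and 5 with voom with quality weights, 0 with PX 36 to 44, 1 with Sham 46 to 50 and 2 to 4 with each library left out. Correlations past the threshold, 1 with library measures and 6 between members, were 0 and 0 without the 2 libraries farthest from the median. The acinar score difference was 1.44 to 2.03 and the acinar share difference 6.32 to 10.8 points with each library left out; the first was lost in some (adjusted p up to 0.0634) and the second gained (down to 0.0416). 

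These values changed sign. Without the 2 farthest libraries r was -0.10 for Lcn2 with Reg3a, -0.21 and -0.070 for Reg1a and Reg3a with BG, and -0.13 for Reg3g with the duct score. With each library left out, BG slopes were -0.075 to 0.35 for Reg1a and -0.073 to 0.35 for Reg3a, and the Lcn2 slope on the acinar share was -0.045 with library totals only. Extl3 was -0.26 with library totals, -0.027 without a filter, -0.00094 and -0.0052 with voom with and without quality weights, -0.13 with the acinar share or score as a covariate, -0.11 with PX 36 to 44, -0.0024 with Sham 46 to 50, -0.035 without Sham 46 and PX 65 and -0.049 to 0.11 with each library left out. Pigr was -0.0036 with library totals and -0.057 and -0.12 with the acinar share and score. Slc22a17 was 0.0204 with DESeq2 size factors, 0.01999 with its test, 0.0018 with voom with quality weights, 0.087 with PX 57 to 70, 0.0043 with Sham 46 to 50 and -0.071 to 0.088 with each library left out.

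No paired analysis was possible because the PX and Sham libraries share no animal number. Depth leaves Reg4 with an upper limit only in both groups, and Reg3g in Sham with 18 counts, so that the size of its difference is poorly fixed.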
